A study of Mus musculus with 60 samples.

Results

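The genes described here make, move and sense cholesterol and fatty acids in the mouse cortex. Their symbols came from a list of 37, each represented by the brightest probe set that is annotated with that symbol alone, and a gene was kept if its log2 intensity reached at least 4 on at least 6 of the 60 arrays. A single-symbol probe set was found for 34 of the 37 genes and 33 passed, among 11886 genes that passed in the whole series. Acat2, Nr1h2 and Soat1 had no such probe set and were not analysed here, and Nr1h3 stayed at the lowest value of the arrays, 2.07 on the log2 scale. Each of the 33 genes was above the limit on all 60 arrays, so none entered through 1 treatment alone. They comprise 6 enzymes of the mevalonate steps, 9 enzymes of the sterol steps and 5 genes of sterol sensing and control. The others are 4 genes of uptake and intracellular transport, 5 of export and turnover, and 4 of fatty acid synthesis.

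Male mice of 30 inbred strains, labelled as 10 to 11 weeks old, received fluoxetine, a serotonin reuptake inhibitor, by mouth at 18 mg/kg per day or water alone (0 mg/kg) for 21 days. Each array carried cortical RNA pooled from 3 mice, with 1 fluoxetine array and 1 water array per strain. The 30 strains therefore stand as the replicates of the treatment comparison, and both arrays of a strain as the replicates of that strain. Strain-to-strain variation in response, pool-to-pool variation and measurement noise all enter the spread behind the p-values. If the arrays of 1 strain shared a batch, that batch cannot be told apart from the strain, and no scan dates were given with the arrays used here.

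Brain cholesterol is made within the brain, since lipoproteins of the blood do not cross the blood-brain barrier. Enzymes of the mevalonate steps build the isoprenoid units that the sterol steps join and close into the ring of cholesterol. When sterol in the endoplasmic reticulum runs low, SCAP escorts the SREBP factors to the Golgi, where they are cut and released to switch on genes of synthesis and uptake; INSIG proteins hold SCAP back when sterol is ample. Astrocytes export cholesterol on apolipoprotein E particles, oligodendrocytes build it into myelin, and neurons dispose of it through the hydroxylase CYP46A1.

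Promoter windows from RefSeq on GRCm38.p6, from 250 bases before to 50 bases after an annotated start, were matched by symbol for 28 of the 37 listed genes, with 39 windows in all. Of these the windows of 3 genes are printed because they stand for the start of the pathway, its feedback gene and the gene with the smallest p below. Hmgcs1 lies at chr13:119690101-119690400, Insig1 at chr5:28071162-28071461 and Lss at chr10:76531355-76531654, each on the plus strand. Capitals mark the letters searched on both strands: TCACNCCAC, the consensus-like sterol regulatory element, its shorter form CACNCCAC, which every longer match contains, CCAAT, the box bound by NF-Y, and CACGTG, the E-box.
Hmgcs1: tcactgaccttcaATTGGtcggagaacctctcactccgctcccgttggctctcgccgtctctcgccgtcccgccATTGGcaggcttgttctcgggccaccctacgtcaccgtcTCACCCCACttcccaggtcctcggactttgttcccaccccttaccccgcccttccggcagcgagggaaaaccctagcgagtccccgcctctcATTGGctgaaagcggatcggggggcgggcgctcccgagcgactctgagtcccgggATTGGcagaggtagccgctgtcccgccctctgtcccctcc
Insig1: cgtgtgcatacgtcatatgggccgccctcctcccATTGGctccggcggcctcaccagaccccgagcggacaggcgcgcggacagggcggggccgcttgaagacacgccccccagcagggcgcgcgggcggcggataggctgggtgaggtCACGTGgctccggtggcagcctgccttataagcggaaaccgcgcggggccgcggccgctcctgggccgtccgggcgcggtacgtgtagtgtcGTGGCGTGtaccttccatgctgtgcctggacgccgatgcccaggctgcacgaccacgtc
Lss: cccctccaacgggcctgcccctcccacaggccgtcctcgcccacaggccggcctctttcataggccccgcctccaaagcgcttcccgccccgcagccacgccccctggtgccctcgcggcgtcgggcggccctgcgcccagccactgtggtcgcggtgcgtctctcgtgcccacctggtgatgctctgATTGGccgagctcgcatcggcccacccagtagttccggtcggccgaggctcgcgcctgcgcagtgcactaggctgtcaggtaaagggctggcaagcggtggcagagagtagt
Hmgcs1 held the longer sterol element and 4 CCAAT boxes on the minus strand, Insig1 the shorter element, 1 CCAAT box and 1 E-box, and Lss 1 CCAAT box. CCAAT occurred in 21 of the 39 windows (53.8%), against 37.41% of all 32851 windows of this length, and CACGTG in 6 (15.4%), against 7.15%. The shorter sterol element occurred in 3 windows (7.7%), against 6.24%, and the longer in 1, that of Hmgcs1, against 1.24%. These matches describe letters and were not tested.

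The array medians lay between 39.1 and 43.1 on the linear intensity scale, and 25.96% to 27.9% of probe sets on an array sat at the lowest value. Markers of cortical excitatory neurons were present, with 5 of 6 past the limit, as were 9 of 10 of oligodendrocytes and all 7 of astrocytes and of microglia. Of 4 choroid plexus markers, 1 passed, Ttr, which ran between 4.25 and 11.21 on fluoxetine arrays and 5.07 and 15.09 on water arrays. The SD of its difference over strains was 2.70. In pooled tissue, fewer cells of a type and less RNA per cell cannot be told apart, which holds for every value below.

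With fluoxetine, 0 of 33 genes passed the threshold (limma with strain as a block, Benjamini-Hochberg adjusted p under 0.05 over 11886 genes), against 7 of all genes tested (0.0589%). At an unadjusted p under 0.05, 9 of the 33 were lower with fluoxetine, where 8.0% of all genes were, and 1 was higher, where 7.30% of all genes were. The sign-flip permutation test over strains, two-sided, gave 10 genes at the same limit. The differences over the 33 genes ran from -0.13 to 0.05 on the log2 scale, with a median of -0.01 and 20 genes on the lower side, against a median of -0.0029 and 53.1% on the lower side over all genes. By role, 11 of 15 synthesis enzymes, 4 of 5 sensing genes and 3 of 4 fatty acid genes had a mean difference below 0. Of export and turnover genes, 5 of 5 had one above 0 by the probe set used. Second probe sets of Abca1 and Abcg4 had one below 0. None of the differences of the 33 genes passed the adjusted threshold, and their SEs over strains lay between 0.0134 and 0.0495.

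**Figure D1:**
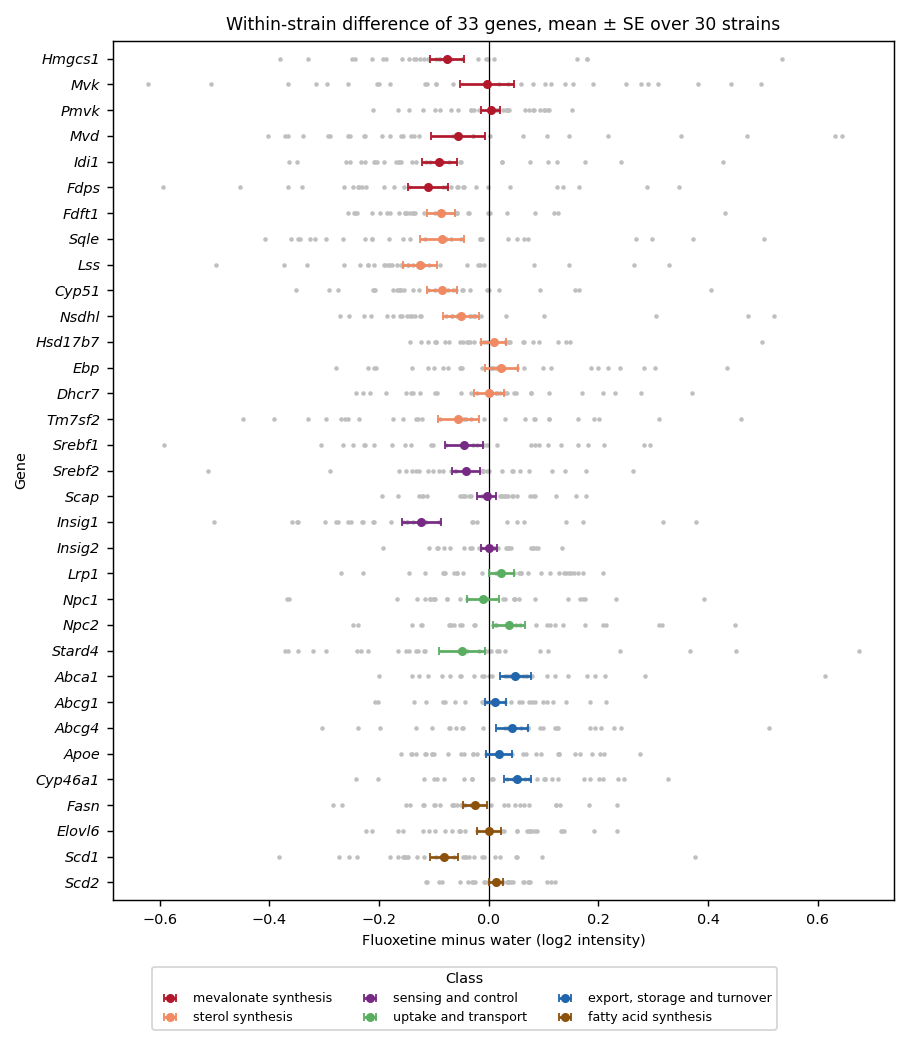
Fluoxetine minus water on the log2 intensity scale for 33 genes, in rows by class. Grey points are the 30 strains and coloured points with bars are the mean and SE, and the means run between -0.13 (Lss) and 0.05 (Cyp46a1) while single strains reach beyond 0.6 on the higher side.

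Among the enzymes of the mevalonate steps, Hmgcs1, which makes HMG-CoA, ran between 13.09 and 13.97 with a median of 13.50 on fluoxetine arrays, against 13.35 to 13.83 with a median of 13.59 on water arrays. The water range lay inside the fluoxetine range, and the fluoxetine value was the lower of the pair in 25 of 30 strains. Its difference was -0.08 (SE 0.0311; limma adjusted p = 0.220), with the most negative value in NOD/LtJ, -0.38, and the most positive in P/J, 0.54. The further probe sets of Hmgcs1 had differences of -0.18 to -0.06.

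Idi1, the isomerase of the isoprenoid units, spanned 10.55 to 11.43 with a median of 11.02 on fluoxetine arrays and 10.74 to 11.43 with a median of 11.09 on water arrays. The groups overlapped over nearly their whole range. Its difference was -0.09 (SE 0.0317; limma adjusted p = 0.167; lower in 22 of 30 strains). Fdps, which makes farnesyl diphosphate, spanned 9.46 to 10.62 with a median of 10.04 with fluoxetine and 9.82 to 10.48 with a median of 10.15 with water. Here too the water arrays lay within the span of the fluoxetine arrays, and the difference was -0.11 (SE 0.0363; limma adjusted p = 0.142; lower in 24 of 30). The lowest difference of Fdps was in BUB/BnJ, -0.59, and the highest in DBA/2J, 0.35. Mvd, the decarboxylase, had a difference of -0.06 (SE 0.0495; lower in 21 strains) and the largest SD over strains of this class, 0.281, with single values between -0.40 in 129S1/SvImJ and 0.64 in P/J. The kinases Mvk and Pmvk were near 0, with differences of -0.0031 (SE 0.0487) and 0.0037 (SE 0.0176).

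Of the sterol steps, Lss, the cyclase that closes the ring of lanosterol, had the smallest p of the 33 genes. It spanned 8.78 to 9.58 with a median of 9.10 on fluoxetine arrays, against 8.94 to 9.71 with a median of 9.23 on water arrays. The groups overlapped, and 26 of 30 pairs were lower with fluoxetine. The difference was -0.13 (SE 0.0307; limma adjusted p = 0.0764), a change of -8.34%, and it ran between -0.50 in NZW/LacJ and 0.33 in RIIIS/J. Without RIIIS/J the gene passed, at -0.14 (limma adjusted p = 0.0276). Leaving out the strain with the highest difference lowers the mean by itself, so this pass is no independent support. A second probe set of Lss gave -0.10 with 21 strains lower, but its strain means correlated with those of the one used at only 0.127 over 30 strains.

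Fdft1, the squalene synthase that commits farnesyl diphosphate to sterols, spanned 11.87 to 12.76 with a median of 12.21 on fluoxetine arrays and 12.01 to 12.58 with a median of 12.34 on water arrays. The fluoxetine arrays of P/J, the highest, and of DBA/2J and C58/J lay above every water array. The difference was -0.09 (SE 0.0263; limma adjusted p = 0.116; lower in 24 of 30), and without P/J it was -0.10 and passed (limma adjusted p = 0.0350). P/J had the highest difference of Fdft1, 0.43, so leaving it out lowers the mean by itself. Another probe set of Fdft1 gave -0.06, also lower in 24 strains.

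Cyp51, the lanosterol demethylase, spanned 9.57 to 10.52 with a median of 10.05 with fluoxetine and 9.62 to 10.61 with a median of 10.19 with water. The spans nearly coincided, since strains differed far more than treatments, and 24 of 30 pairs were lower with fluoxetine. Its difference was -0.09 (SE 0.0274; limma adjusted p = 0.135). A second probe set of Cyp51 gave -0.05, lower in 18 strains, and the mean of all its probe sets, 1 of which reached the limit on no array, gave -0.03. Sqle, the squalene epoxidase, gave -0.09 (SE 0.0403; limma adjusted p = 0.302; lower in 22), Nsdhl, a dehydrogenase in the removal of methyl groups from lanosterol, -0.05 (lower in 25) and Tm7sf2, a sterol reductase, -0.06 (lower in 19). The late enzymes Hsd17b7, Ebp and Dhcr7 had differences of 0.0092, 0.02 and 0.00099, and 13 to 17 strains on the lower side.

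**Figure D2:**
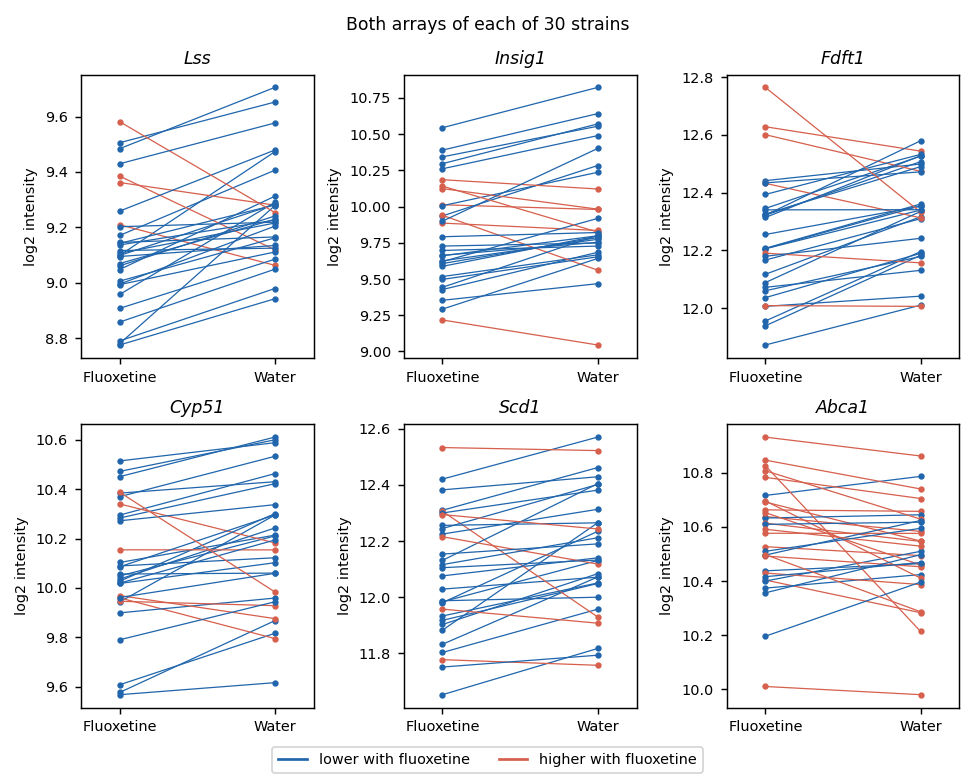
Log2 intensity of 6 genes on the fluoxetine array (left) and the water array (right) of each of 30 strains, joined by a line that is blue where fluoxetine was lower and red where it was higher. Blue lines number 26 for Lss, 23 for Insig1, 24 each for Fdft1, Cyp51 and Scd1, and 11 for Abca1, and the vertical spread of strains exceeds the slope of most lines.

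In sterol sensing and control, Insig1, itself a target of the SREBP factors, had the largest difference of the 5 genes. It spanned 9.22 to 10.54 with a median of 9.76 on fluoxetine arrays, against 9.04 to 10.82 with a median of 9.81 on water arrays. Fluoxetine values lay inside the span of the water values, and 23 of 30 pairs were lower with fluoxetine. The difference was -0.12 (SE 0.0359; limma adjusted p = 0.101), a change of -8.18%, with the lowest value in NOD/LtJ, -0.50, and the highest in CBA/J, 0.38. Srebf2, the SREBP factor that favours cholesterol genes, spanned 9.51 to 10.30 with a median of 9.84 with fluoxetine and 9.50 to 10.31 with a median of 9.86 with water, which is nearly the same span. Its difference was -0.04 (SE 0.0261; lower in 20 strains), and that of Srebf1, whose product favours fatty acid genes, was -0.04 (SE 0.0346; lower in 19). Srebf1 spanned 8.39 to 9.24 with a median of 8.76 with fluoxetine and 8.28 to 9.25 with a median of 8.84 with water, so its groups overlapped too. Scap and Insig2 gave -0.0038 (SE 0.0175) and 0.00012 (SE 0.0143).

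Uptake and transport genes showed no shared direction. Lrp1, an endocytic receptor for apolipoprotein E, spanned 11.16 to 11.77 with a median of 11.42 on fluoxetine arrays and 11.03 to 11.63 with a median of 11.42 on water arrays, and its difference was 0.02 (SE 0.0227; higher in 18). The groups overlapped over most of their span. The other probe set of Lrp1 gave 0.06, but the differences of both correlated at -0.582 over strains. Npc1 and Npc2, which pass cholesterol out of the lysosome, gave -0.01 (SE 0.0286; higher in 13) and 0.04 (SE 0.0289; higher in 17). Npc2 spanned 10.36 to 11.45 with a median of 10.77 with fluoxetine and 10.21 to 11.00 with a median of 10.74 with water. The fluoxetine arrays of P/J and DBA/2J stood above every water array. Stard4, a soluble sterol carrier, gave -0.05 (SE 0.0427; lower in 19), while its other probe sets gave -0.07 and -0.23, lower in 23 and 26 strains.

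For export and turnover, all 5 measured genes had a mean difference above 0 by the probe set used, between 0.01 and 0.05. Cyp46a1, the neuronal cholesterol 24-hydroxylase, spanned 11.56 to 12.25 with a median of 11.86 on fluoxetine arrays, against 11.51 to 12.10 with a median of 11.85 on water arrays. The spans overlapped almost fully, 21 of 30 pairs were higher with fluoxetine, and the difference was 0.05 (SE 0.0245; limma adjusted p = 0.307). Abca1, the transporter that loads lipid on apolipoproteins, spanned 10.01 to 10.93 with a median of 10.58 with fluoxetine and 9.98 to 10.86 with a median of 10.52 with water. Its difference was 0.05 (SE 0.0278; limma adjusted p = 0.416; higher in 19), the largest single value being 0.61 in I/LnJ, and a second probe set gave -0.0089. Single strains carried part of these means: the difference of Abca1 was 0.03 without I/LnJ, that of Abcg4 0.03 without CBA/J, that of Abcg1 0.0048 without DBA/2J and that of Apoe 0.01 without LG/J. The transporters Abcg1 and Abcg4 gave 0.01 (SE 0.0191) and 0.04 (SE 0.0291). A second probe set of Abcg4 gave -0.02, lower in 13 strains and higher in 13, and that of Abcg1 gave 0.04. Apoe, the main apolipoprotein of brain, spanned 13.81 to 14.28 with a median of 14.002 with fluoxetine and 13.60 to 14.24 with a median of 14.01 with water, so the groups overlapped, and its difference was 0.02 (SE 0.0234; higher in 14).

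Among the fatty acid genes, Scd1, a desaturase that makes monounsaturated fatty acids, spanned 11.65 to 12.53 with a median of 12.09 on fluoxetine arrays, against 11.76 to 12.57 with a median of 12.14 on water arrays. The overlap was again nearly complete, 24 of 30 pairs were lower with fluoxetine, and the difference was -0.08 (SE 0.0250; limma adjusted p = 0.121). Its paralog Scd2 spanned 14.38 to 14.66 with a median of 14.57 with fluoxetine and 14.47 to 14.65 with a median of 14.54 with water. That gene had the narrowest spans described here, and its difference was 0.01 (SE 0.0134; higher in 18). Fasn, the fatty acid synthase, spanned 10.83 to 11.39 with a median of 11.12 with fluoxetine and 10.86 to 11.39 with a median of 11.11 with water, and gave -0.02 (SE 0.0221; lower in 18). Elovl6, which lengthens fatty acids, gave -0.00014 (SE 0.0217).

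Of other genes of lipid metabolism, 37 of 40 with a single-symbol probe set passed the limit and 0 passed the threshold in limma. At an unadjusted p under 0.05, 4 were lower and 5 higher with fluoxetine, 24.3% of the 37 against 15.3% of all genes tested. The 3 with the smallest p were Lrp8, a receptor for reelin and apolipoprotein E, at 0.16 (SE 0.0461; limma adjusted p = 0.0972; higher in 22), Lrpap1, a chaperone of that receptor family, at 0.06 (limma adjusted p = 0.142; higher in 19), and Cyp27a1, a sterol hydroxylase, at -0.23 (limma adjusted p = 0.142; lower in 21).

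The synthesis enzymes lay on either side of 0 in different strains. The mean difference over the 15 enzymes was below 0 in 25 of 30 strains, between -0.16 in BUB/BnJ and -0.0169 in PL/J, and was 0.0047 in RIIIS/J. It was above 0.1 in 4 strains, at 0.26 in P/J (12 of 15 enzymes higher), 0.19 in CBA/J (12 of 15), 0.16 in C58/J (14 of 15) and 0.15 in DBA/2J (11 of 15). With 1 array per strain and treatment, a single strain's difference has no replicate and was not tested. In P/J the differences were 0.54 for Hmgcs1, 0.64 for Mvd, 0.52 for Nsdhl and 0.40 for Cyp51, but -0.0085 for Lss. In CBA/J Sqle was at 0.50 and Insig1 at 0.38, and in DBA/2J Mvd was at 0.63 and Hsd17b7 at 0.50. In C58/J the enzymes other than Lss (-0.22) were higher, Mvd the most at 0.35, while Insig1 was at -0.21.

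Astrocyte and microglia markers were also higher with fluoxetine in some of these strains. The astrocyte score, the mean over 7 markers, differed by 0.57 in P/J, 0.57 in C58/J, 0.25 in DBA/2J and 0.0139 in CBA/J, and the microglia score by 0.61, 0.14, 0.39 and 0.0634 in the same order. Gfap, the filament of reactive astrocytes, differed by 2.81 in P/J, 3.17 in C58/J, 1.29 in DBA/2J and 0.07 in CBA/J, whereas C57BR/cdJ, with 1.45 for Gfap, had an enzyme mean of -0.10. Gfap weighed most in the astrocyte score: its mean difference over strains was 0.43, against -0.0136 (Aldoc) to 0.0938 (Aqp4) for the other astrocyte markers. Over 30 strains the enzyme mean correlated with the astrocyte score at r = 0.66 (rho = 0.236) and with the microglia score at r = 0.664 (rho = 0.393), as a description of values that share an array and its normalization. Without the 2 strains farthest from the median of the marker score, r was 0.223 for astrocytes (P/J and C58/J left out) and 0.291 for microglia (P/J and DBA/2J left out). Leaving out extreme scores narrows their range, which can lower r by itself, and the part of single strains was not tested. Oligodendrocyte markers, whose cells hold much of the cholesterol of brain, had a mean difference below 0 in 9 of 9 genes (limma adjusted p = 0.0764 to 0.367). The oligodendrocyte score ran between -1.21 and 0.62 on fluoxetine arrays and -0.46 and 0.64 on water arrays. Its mean difference was -0.21 (SD 0.348, n = 30), and it was lower in 21 strains. In P/J it differed by -0.89, in C58/J by -0.67, in DBA/2J by -0.17 and in CBA/J by 0.17. Its difference correlated with the enzyme mean at r = -0.235 (rho = -0.114) over 30 strains, and at r = -0.349 without SM/J and MRL/MpJ, the 2 farthest from the median. Over all 30 strains the correlation with the enzyme mean was -0.341 (rho = -0.344) for the endothelium score, which was lower with fluoxetine in 21 strains. For the score of cortical excitatory neurons it was 0.344 (rho = 0.285).

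**Figure D3:**
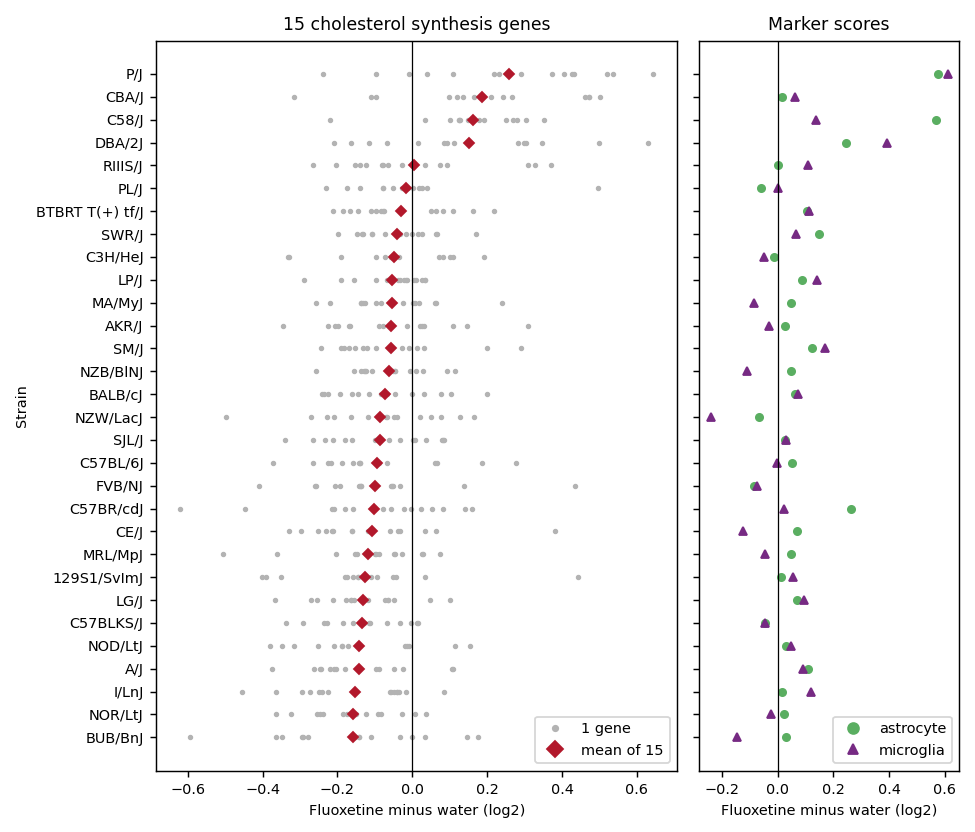
Left, fluoxetine minus water (log2) in each of 30 strains, with grey points for 15 cholesterol synthesis genes and red diamonds for their mean; right, the difference of the astrocyte and microglia marker scores in the same strains. Means lie below 0 in 25 strains, and P/J, CBA/J, C58/J and DBA/2J stand at 0.26, 0.19, 0.16 and 0.15.

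Calls changed with some sets of marker scores as covariates and with the strains included. With the scores of oligodendrocytes, astrocytes and endothelium as covariates, Fdft1 was at -0.15 (limma adjusted p = 0.0144) and Cyp51 at -0.15 (limma adjusted p = 0.0138), and they were the 2 genes of all 11886 that passed. Astrocyte and microglia scores, a choice made after seeing the data, gave the same 2 genes, at -0.13 and -0.14. The scores come from the same arrays as the enzymes. Those of astrocytes and microglia were higher with fluoxetine in P/J, C58/J and DBA/2J, as was the enzyme mean. Neither covariate fit is therefore independent support for lower enzyme values. Another fit left out the 5 strains with the largest differences over all other genes (P/J, DBA/2J, BUB/BnJ, C57BR/cdJ and C58/J), also chosen after seeing the data. It gave Hmgcs1 at -0.12 (limma adjusted p = 0.0386), Fdft1 at -0.12 (limma adjusted p = 0.0210) and Cyp51 at -0.12 (limma adjusted p = 0.0344), the only 3 genes of all that passed. P/J, DBA/2J and C58/J are also among the 4 strains with an enzyme mean above 0.1, so leaving them out lowers the enzyme differences by itself. BUB/BnJ and C57BR/cdJ had enzyme means of -0.16 and -0.10. This fit is therefore no independent support for lower enzyme values. The part of the glial markers in the values without covariates was not tested.

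Likeness among the enzymes is given as a description. Among the 105 pairs of the 15 synthesis genes the median correlation of the differences over 30 strains was 0.304, against 0.015 over all pairs of genes tested, and that of the strain means was 0.281, against 0.045. Each gene's difference was also set against the mean of the other enzymes, with no test, since all share arrays. Nsdhl (r = 0.838), Cyp51 (0.817), Fdft1 (0.81), Mvd (0.806) and Sqle (0.733) followed it most closely, and Lss (0.184), Pmvk (0.101) and Mvk (-0.144) the least. Outside the enzymes, Stard4 (0.825), Npc2 (0.675) and Insig1 (0.544) were the most alike in difference. Srebf2 was at 0.382, Srebf1 at -0.13, Abca1 at 0.017 and Apoe at -0.25. P/J, with the highest enzyme mean, also had the highest difference of Nsdhl, Cyp51, Fdft1, Mvd, Stard4 and Npc2. The part of single strains in these correlations was not tested.

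Probe set intensities differed between strains for most of these genes. Probe sequences and strain variants were not given here, so a strain difference in probe binding cannot be told apart from one in RNA level. The F-test of the strain coefficients (limma, Benjamini-Hochberg adjusted p under 0.05) passed for 29 of 33 genes, where 88.3% of all genes passed. The 4 that did not pass were Mvk (adjusted p = 0.0682), Sqle (0.0933), Ebp (0.0642) and Scd2 (0.0678), all by limma. Between the fluoxetine and the water array of a strain the intraclass correlation had a median of 0.627 over the 33 genes, against 0.593 over all genes, and the strain means spanned 0.21 to 1.55 on the log2 scale, with a median span of 0.66 against 0.68 over all genes.

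Insig1 had the widest span of strain means, 1.55 or 2.93-fold, between 9.13 in BUB/BnJ and 10.68 in SWR/J (F = 13.4; limma adjusted p = 5.50e-10). After BUB/BnJ the lowest strains were AKR/J at 9.41 and CE/J at 9.47, and below SWR/J stood NOR/LtJ at 10.52, C58/J at 10.45 and SJL/J at 10.43. The 5 highest strains, FVB/NJ with the lowest fluoxetine array at 10.26 among them, lay above every array of the other 25 strains except water arrays of NOD/LtJ (10.40) and C57BL/6J (10.28). Insig1 has 1 single-symbol probe set, so this order has no second measurement. Npc1 spanned 1.04 or 2.05-fold, between 8.64 in SM/J and 9.68 in LG/J (F = 17.5; limma adjusted p = 1.90e-11), and both arrays of a strain were close (intraclass correlation 0.890). SM/J, FVB/NJ (8.69) and A/J (8.73) were lowest and LG/J, MRL/MpJ (9.64) and LP/J (9.59) highest, and the arrays of the 3 strains at either end overlapped. Over single arrays Npc1 spanned 8.58 to 9.76 with a median of 9.15 with fluoxetine and 8.66 to 9.64 with a median of 9.22 with water. Npc1 was also measured by 1 single-symbol probe set.

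**Figure D4:**
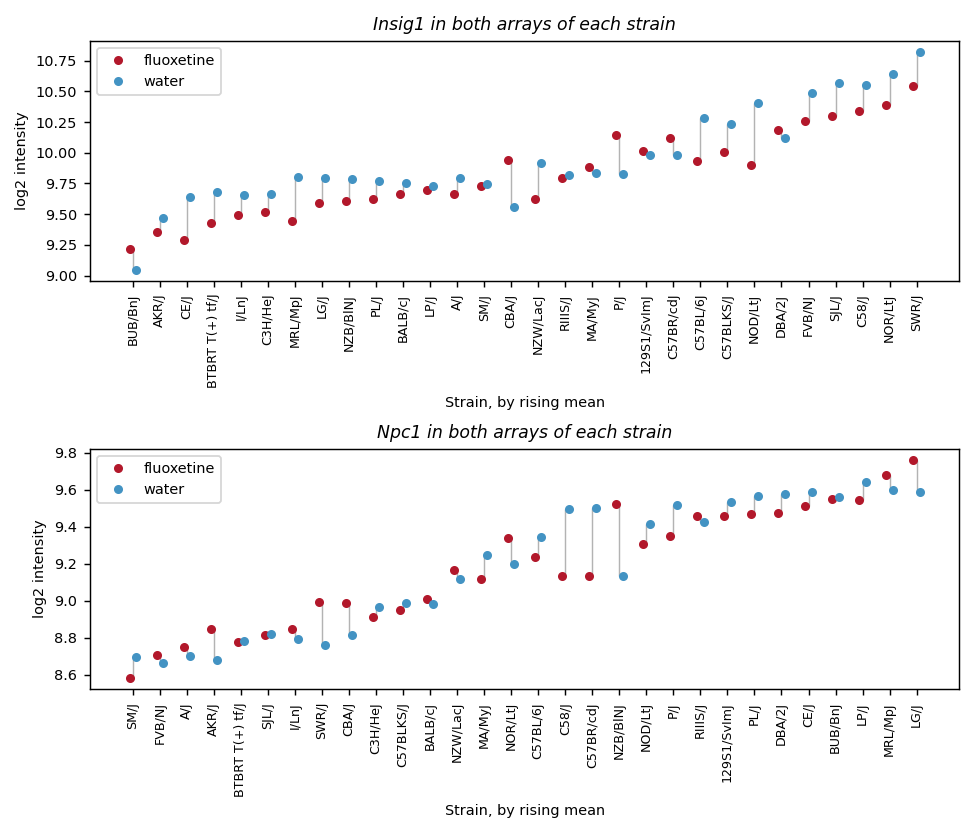
Log2 intensity of Insig1 (top) and Npc1 (bottom) on the fluoxetine array (red, left of each pair) and the water array (blue) of 30 strains, in order of rising strain mean. Strain means run between 9.13 and 10.68 for Insig1 and between 8.64 and 9.68 for Npc1, and most pairs are closer than the ends of the order.

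Cyp51 spanned 0.96, between 9.59 in C3H/HeJ and 10.55 in SWR/J, with A/J (9.71) and C57BLKS/J (9.72) next to the low end and NZB/BlNJ (10.54) and SJL/J (10.53) next to the high end (F = 10.8; limma adjusted p = 7.95e-09). Its second probe set also had SWR/J highest, but the strain means of both correlated at 0.313. Hsd17b7, which reduces a keto group of sterol intermediates, spanned 0.88, lowest in A/J (8.74) and highest in DBA/2J (9.63), and 2 further probe sets also had DBA/2J highest, with correlations of 0.825 and 0.684. Tm7sf2 spanned 0.87, with C57BL/6J lowest (8.15) and LG/J highest (9.02). Srebf1 spanned 0.89, with C57BL/6J lowest (8.34), C57BLKS/J next (8.51) and LP/J highest (9.23).

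Npc2 spanned 0.91, lowest in SWR/J (10.32) and highest in P/J (11.23), where the fluoxetine array stood 0.45 above the water array. A second probe set gave the same extremes and a correlation of 0.910, and another gave 0.166. Abca1 spanned 0.90, with MA/MyJ lowest at 10.01 on the fluoxetine array and 9.98 on the water array, and NZB/BlNJ highest (10.90). The next lowest strain, NZW/LacJ, was at 10.30, but the other probe set of Abca1 had SM/J lowest and correlated at 0.334. Scd1 spanned 0.79, between 11.74 in AKR/J and 12.53 in SWR/J. Among the remaining genes of the fixed set, Lss ran between 8.86 in AKR/J and 9.59 in C58/J, Srebf2 between 9.52 in BALB/cJ and 10.21 in LG/J, Lrp1 between 11.09 in 129S1/SvImJ and 11.70 in LG/J, and Apoe between 13.71 in SM/J and 14.21 in DBA/2J. For Lrp1, the other probe set had AKR/J lowest and BTBRT T(+) tf/J highest, and the strain means of both correlated at -0.286. Cyp46a1 ran between 11.59 in NOD/LtJ and 12.12 in LG/J, Fasn between 10.88 in C57BL/6J and 11.35 in P/J, and Hmgcs1 between 13.26 in CE/J and 13.76 in 129S1/SvImJ. Scd2 had the narrowest span, 0.21, by the probe set used, whereas another probe set of that gene spanned 6.09 over strains with A/J highest and SM/J lowest, so the probe sets of Scd2 disagreed.

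Several strains were at the same end for several genes. LG/J had the highest strain mean for Ebp, Tm7sf2, Srebf2, Scap, Lrp1, Npc1, Abcg1 and Cyp46a1, while C57BL/6J had the lowest for Tm7sf2, Srebf1, Scap and Fasn. How often these strains were at the same end over all genes was not counted, so this is not shown to be particular to the listed genes. Another probe set of Srebf2 also had LG/J highest, but those of Lrp1 and Abcg1 had BTBRT T(+) tf/J and NZB/BlNJ highest. For the mean of the 15 enzymes, each gene set relative to its own mean, C58/J (0.18), P/J (0.16) and DBA/2J (0.15) were highest and C3H/HeJ (-0.19), I/LnJ (-0.14) and FVB/NJ (-0.10) lowest. The first 3 are also strains in which the enzyme mean was higher on the fluoxetine array, and a strain mean includes that array.

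**Figure D5:**
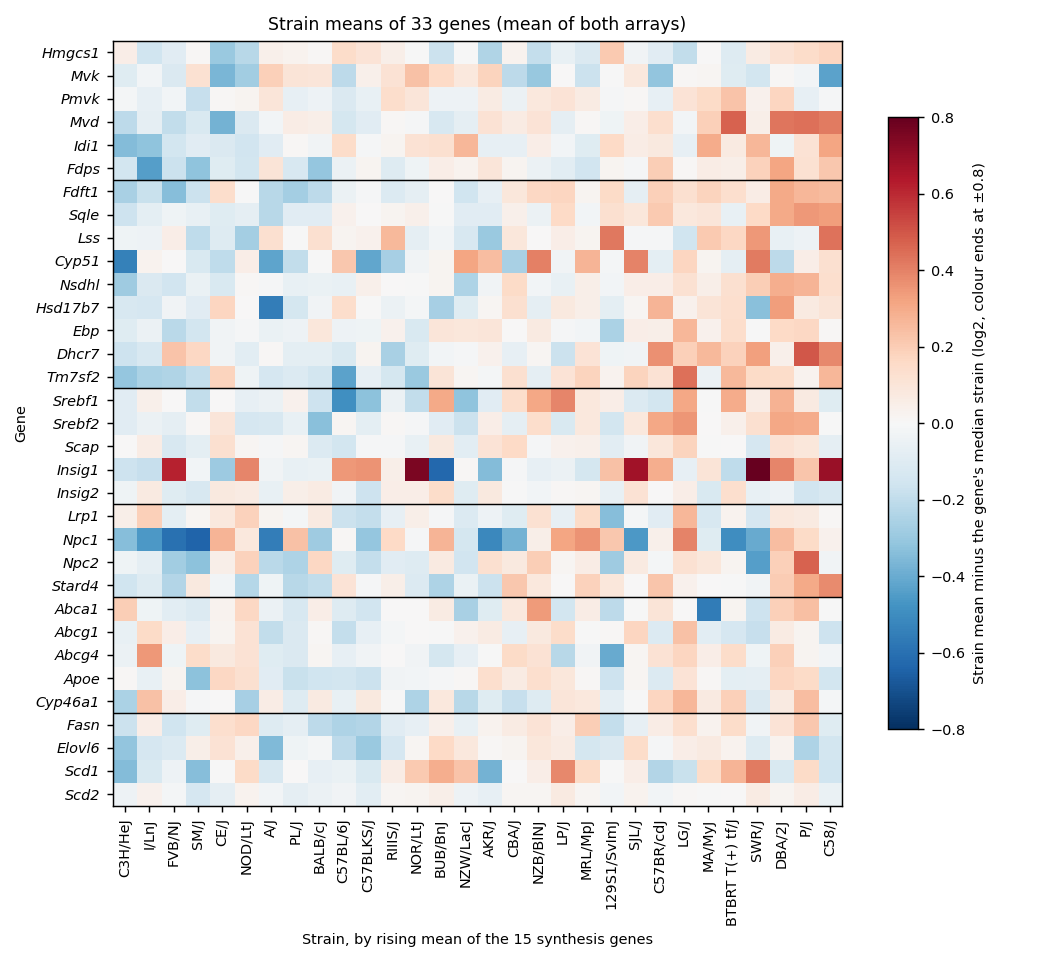
Strain means of 33 genes (rows, lines between classes) in 30 strains (columns, by rising mean of the 15 synthesis genes), as the log2 difference to the median strain of each gene, with the colour scale ending at 0.8 on either side. Insig1 and Npc1 show the deepest colours, with spans of 1.55 and 1.04, and Scd2 the palest, with 0.21.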

How the data were processed

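Cortical RNA of 30 mouse strains was measured on 60 Affymetrix arrays, each a pool of 3 mice. The values deposited by the authors are linear intensities, 1 per probe set and array, and the submitters' processing notes name GCRMA, its version not stated there. Log2 was taken with no pseudocount added. GCRMA corrects background by probe sequence, which compresses values near the lowest, 2.07. Of 45101 probe sets, 34945 were annotated with 1 gene, 932 with several, 9160 with none, and 64 were controls. Control and several-gene probe sets were not used. The brightest probe set stood for each of 18193 genes, and 11886 passed log2 4 in 6 or more arrays, whichever group these belonged to.

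The members and lists were chosen with earlier results of these data known. Treatment was tested with limma 3.58.1 in R 4.3.3 (lmFit, eBayes, two-sided) blocked by strain, with Benjamini-Hochberg adjustment at 0.05 over every gene that passed. The same fit gave the F-test between strains. Strain pairs the arrays by label, and the check bore this out: in 30 of 30 strains the fluoxetine array correlated best with its own water array, and the reverse held in 30 of 30, at 0.519 to 0.855 for the deviations from the group means. No 2 arrays held identical values. Each gene of the list was named by class. Fuller values were given by rule to the 8 of smallest p, the 8 of widest strain span and 12 fixed genes. Marker scores are means of log2 values, each relative to its mean over arrays. The procedure was tested on simulated data. Alternatives were no block, other filters, the mean of all probe sets, aligned medians, quantile normalization, trend and robust eBayes, marker scores as covariates, a sign-flip permutation test with 100000 draws, and each strain left out. The number of arrays limits the precision.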

Additional observations from a re-analysis of the deposited data

How the results depend on the processing

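Of the 33 genes, 0 passed with no replicate block, without a filter, with aligned medians, with a stricter filter (log2 6), with probe sets averaged per gene, with quantile normalization, with trend and robust eBayes, and with the oligodendrocyte score as a covariate. The count was 2 with oligodendrocyte, astrocyte and endothelium scores and with astrocyte and microglia scores, and 3 without the 5 strains of large difference. With 1 strain left out at a time it was 0 to 1. It was 1 without P/J (Fdft1) and 1 without RIIIS/J (Lss), each the strain with the highest difference of that gene. Over all genes the count of 7 was 0 without the block, where the paired fit gave 7, 1 without a filter, 0 with averaged probe sets, 0 with the oligodendrocyte score, 2 with either set of several scores, 3 without the 5 strains, and 0 to 21 with 1 strain left out. Of these fits it was 21 without RIIIS/J, 12 without BTBRT T(+) tf/J, 4 without any of NOD/LtJ, CE/J, CBA/J and AKR/J, 3 without NZB/BlNJ or NZW/LacJ, 2 without SWR/J, 1 without any of MA/MyJ, DBA/2J, C57BR/cdJ and C57BL/6J, and 0 without C58/J or C57BLKS/J. The strain count stayed within 1.5 times of 29. The block changed no call of the 33 genes. The causes were not tested.

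Genes with a mean difference near 0 changed sign. With averaged probe sets Hsd17b7 was at -0.0158, Insig2 at -0.0146 and Scd2 at -0.0361. With aligned medians Elovl6 was at 0.0022, and with quantile normalization it was at 0.0035 and Insig2 at -0.0017. With the oligodendrocyte score the values were 0.0229 for Mvk, -0.0036 for Pmvk, -0.0024 for Hsd17b7, -0.0106 for Ebp, -0.0026 for Dhcr7, 0.0087 for Scap, 0.0401 for Npc1 and 0.0225 for Elovl6. With oligodendrocyte, astrocyte and endothelium scores they were 0.0289 for Mvk, -0.0104 for Pmvk, -0.0254 for Hsd17b7, -0.0223 for Ebp, -0.0297 for Dhcr7, 0.0117 for Srebf1, 0.0190 for Scap, 0.0640 for Npc1 and 0.0199 for Elovl6. With astrocyte and microglia scores they were 0.0127 for Mvk, -0.0097 for Pmvk, -0.0156 for Hsd17b7, -0.00063 for Ebp, -0.0368 for Dhcr7, 0.0098 for Scap, 0.0356 for Npc1, -0.0048 for Npc2 and 0.0037 for Elovl6. Without the 5 strains they were 0.0342 for Mvk, -0.0093 for Pmvk, -0.0234 for Hsd17b7, -0.0133 for Dhcr7, 0.0039 for Srebf1, 0.0159 for Scap, 0.0281 for Npc1 and 0.00016 for Elovl6. With 1 strain left out the ranges were -0.0118 to 0.0094 for Dhcr7, -0.0082 to 0.0076 for Elovl6, -0.0077 to 0.0144 for Hsd17b7, -0.0045 to 0.0068 for Insig2, -0.0203 to 0.0182 for Mvk, -0.0242 to 0.0020 for Npc1, -0.0014 to 0.0112 for Pmvk and -0.0101 to 0.0028 for Scap. The 8 genes of smallest p kept a value below 0 in all 12 settings, though with averaged probe sets Cyp51 was at -0.0299, Fdft1 at -0.0371 and Fdps at -0.0559. These genes were picked by p from the same data. Dropping the block, other filters, trend and robust eBayes and the sign-flip test cannot change a difference, so the kept sign there is no support. Each array is 1 pool, so the response of a single strain has no replicate.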
